A study of Mus musculus with 10 samples.

Results

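The MEF2 transcription factors and the class IIa histone deacetylases that bind them are described here across 10 RNA-seq libraries of mouse hippocampal CA3. The group holds 7 genes taken by symbol: Mef2a, Mef2c, Mef2d, Hdac4, Hdac5, Hdac7 and Hdac9. All 7 were found among the 18453 gene identifiers of the count tables, and all 7 were among the 14393 genes tested. The fourth MEF2 gene, Mef2b, was too low to be tested and is described by its counts.

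In 5 libraries the CA3 of both hemispheres had received adeno-associated virus carrying a short hairpin RNA (shRNA) against Mef2c, and in the other 5 the same kind of virus with a scrambled hairpin. All mice were of strain C57BL/6J, and every label gives a male sex, although the injection protocol speaks of either sex; age, the promoter of the hairpin and its sequence are absent from the labels. The aim of the injection, per the labels, was to lower Mef2c in CA3 pyramidal neurons, whereas the RNA came from CA3 tissue with all its cell types. Nothing in the labels tells separate mice of a group from repeat samples, so a p-value reflects only how these libraries vary, which may in part be technical.

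MEF2 factors are MADS-box proteins that bind short A/T-rich elements and, in neurons, switch genes in response to calcium. Class IIa deacetylases have little enzyme activity of their own: in the nucleus they dock on MEF2, bring in the NCoR and SMRT corepressors with HDAC3, and so repress MEF2 targets. Kinases of the CaMK, PKD and SIK families phosphorylate them, 14-3-3 proteins bind the phosphorylated form, and the deacetylases leave the nucleus. Hdac9 is best known in muscle and brain for a short form without the catalytic domain.

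Total counts ranged from 15669620 to 17798090 in the Mef2c shRNA libraries and from 14701928 to 15637076 in the scramble libraries. Over all genes, 12.3% of those tested passed a Benjamini-Hochberg adjusted p of 0.05 in edgeR's quasi-likelihood test, 4.66% higher and 7.61% lower in the Mef2c shRNA libraries. The groups did not overlap in 9.34% of genes, 3.3% higher and 6.04% lower. Fold changes in these libraries went with transcript length: the 2303 tested genes with a longest transcript between 5.179 and 8.100 kb, the range of the 7 genes described here, had a median log2 fold change of -0.16, with 0.347% of them called higher and 17.9% called lower. For that reason the log2 fold changes of the 7 genes and of the called pathway genes are also given after a per-library correction for transcript length and GC content. Sums and shares were not corrected. Under the correction 1.65% of genes were called, 0.702% higher and 0.946% lower. Markers of CA3 pyramidal neurons were present in every library, with a summed level between 166 and 236 CPM (library-size-scaled counts) in the Mef2c shRNA libraries and between 185 and 211 CPM in the scramble libraries. Markers of cortical layer neurons were also present in every library, at a summed 679 to 928 CPM in the Mef2c shRNA libraries and 812 to 833 CPM in the scramble libraries, and none of their 10 genes was at 0 throughout. In bulk tissue, fewer cells of a type and less RNA per cell cannot be told apart.

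Because MEF2 factors act through A/T-rich elements and several MEF2 and class IIa genes are themselves controlled by MEF2, the start regions of the 7 genes are shown first. RefSeq windows on GRCm38.p6, from 250 bases before to 50 after a start site, were available for all 7 genes. A search was made for CTANNNNTAG, a loose MEF2-type pattern that takes any 4 bases at its centre and reads the same on both strands. It found a match in a window of Mef2a, of Hdac5 and of Hdac9. The windows of Mef2c, Mef2d, Hdac4 and Hdac7 held none. The centre is all A in Mef2a and all T in Hdac5, but GCTT in Hdac9, so the Hdac9 match to the pattern is not A/T-rich throughout. Among all 32851 windows of the RefSeq table, 3.69% hold the loose pattern. That is a share of windows and not of genes, and Mef2c, Hdac7 and Hdac9 have several windows each. The tighter core TAAAAATA, or TATTTTTA on the other strand, overlaps the first motif in Mef2a and Hdac5, lies apart from it in Hdac9, and is found in 2.72% of all windows. A match is a description of the letters and not a binding site. Among the neuronal MEF2 target genes listed further below that had a window, only Jun held a match. The windows of Nr4a1, Bdnf, Homer1, Klf6, Lgi1, Pcdh10 and Pcdh17 held neither motif. The matches of Mef2a and Hdac5 are printed with 10 bases on either side, the motif in capitals, next to that of Jun, a gene with a long-known MEF2 element at its start that serves here for comparison. All 3 genes lie on the minus strand and are printed 5′ to 3′ along it, Mef2a from chr7:67372841-67372870, Hdac5 from chr11:102230173-102230202 and Jun from chr4:95052236-95052265.
Mef2a: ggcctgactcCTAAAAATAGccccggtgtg
Hdac5: gggtctgagcCTATTTTTAGctcggggtcg
Jun: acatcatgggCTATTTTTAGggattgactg
Hdac9 has 2 RefSeq windows, at the outer start of the gene and at an inner start, and only the inner window holds matches. It is printed whole because Hdac9 is the gene among the 7 that passed the test, from chr12:34528840-34529139 on the minus strand, with the core TATTTTTA and the match CTAGCTTTAG in capitals. The counts are per gene and do not say from which start the RNA came.
Hdac9: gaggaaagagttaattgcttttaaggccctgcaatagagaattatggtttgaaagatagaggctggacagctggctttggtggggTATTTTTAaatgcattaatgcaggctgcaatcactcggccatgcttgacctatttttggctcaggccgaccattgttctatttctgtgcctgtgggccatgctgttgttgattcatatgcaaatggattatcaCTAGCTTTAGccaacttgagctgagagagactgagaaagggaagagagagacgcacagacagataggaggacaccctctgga

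Per transcript length, the 7 genes were all expressed in CA3, at widely different levels. Levels here are TPM (counts per kilobase of the longest annotated transcript, scaled to a fixed sum per library), as means over the 10 libraries. Mef2d was highest, at 162 TPM (112 to 185), followed by Hdac5 at 124 TPM (113 to 138), Mef2a at 114 TPM (99.8 to 137) and Mef2c at 92.4 TPM (56.3 to 163). The ranges of these 4 neighbours overlap: Mef2d exceeded Hdac5 in 9 of 10 libraries, Hdac5 exceeded Mef2a in 7 and Mef2a exceeded Mef2c in 8. Hdac7 at 36.5 TPM, Hdac4 at 23.4 TPM and Hdac9 at 17.3 TPM followed, each above the next in 10 of 10 libraries. The order depends on the length used. With the median transcript length Hdac5 and not Mef2d was highest. In the Mef2c shRNA libraries Hdac5 was then 77.2% of a class IIa sum of 473 TPM, and Mef2d 42.3% of a MEF2 sum of 446 TPM. In the scramble libraries Hdac5 was 72.9% of 497 TPM and Mef2d 39.9% of 530 TPM. With that length Hdac4 also lay above Hdac7. It then made up 15.9% of the class IIa sum in the Mef2c shRNA libraries and 18.8% in the scramble libraries, against 3.89% and 4.08% for Hdac7. Mef2b had between 3 and 16 reads in the Mef2c shRNA libraries and between 3 and 12 in the scramble libraries, under 1 CPM throughout.

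**Figure D1:**
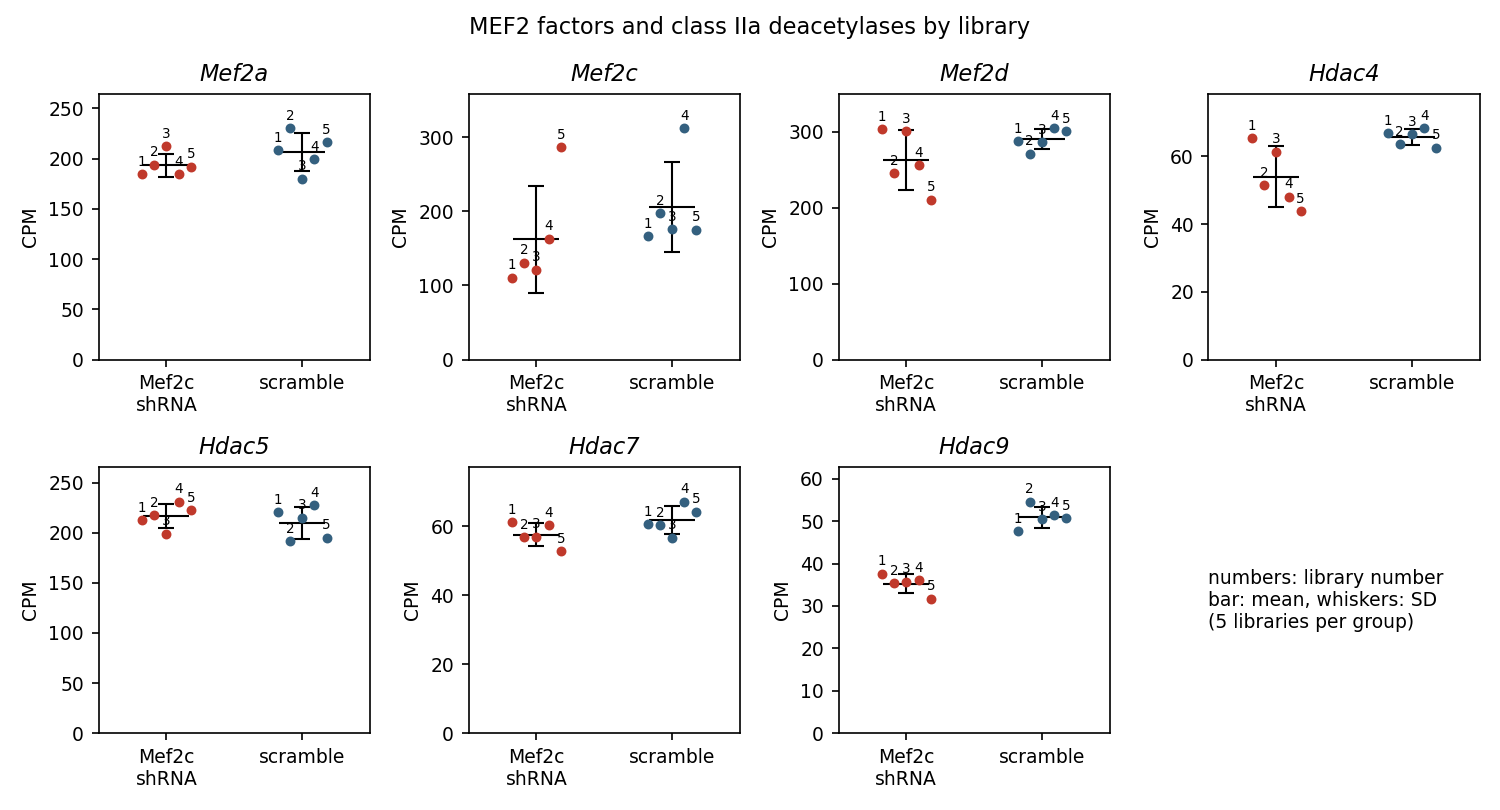
Level of each of the 7 genes in CPM (y axis, from 0) in the 5 Mef2c shRNA libraries (left) and the 5 scramble libraries (right), with mean and SD. The Hdac9 points of the groups do not overlap, and Mef2c is high in the library labelled Mef2c shRNA 5 (286 CPM) and in scramble library 4 (312 CPM).

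Mef2c, the targeted gene (ENSMUSG00000005583, chromosome 13, 83504034 to 83667080, plus strand, GRCm38), encodes the MEF2 factor with known roles in synapse number and neuronal survival. It stood at 111, 131, 121, 163 and 286 CPM in the libraries labelled Mef2c shRNA 1 to 5, against 166, 198, 176, 312 and 175 CPM in scramble libraries 1 to 5. The libraries labelled Mef2c shRNA 1 to 4 were thus below every scramble library, while the library labelled Mef2c shRNA 5 was above all but scramble library 4, and the groups overlap. The log2 fold change was -0.34 (SE 0.30), which did not pass the edgeR test (adjusted p = 0.489). Without the library labelled Mef2c shRNA 5 and scramble library 4, an alternative planned with these values known, it was -0.45 (edgeR adjusted p = 0.0274). With the length and GC correction added to that fit, it was -0.26 (edgeR adjusted p = 0.217). Leaving out the library labelled Mef2c shRNA 5 alone gave -0.64 (edgeR adjusted p = 0.0877), leaving out scramble library 4 alone -0.14 (edgeR adjusted p = 0.799), and leaving out Mef2c shRNA libraries 2, 3 and 4 gave -0.06. After the length and GC correction it was -0.11 (SE 0.33), with 1 surrogate variable -0.13 (edgeR adjusted p = 0.819), and with the microglia score as a covariate its sign turned (0.09, edgeR adjusted p = 0.9). The library labelled Mef2c shRNA 5 and scramble library 4 also had the highest cortical layer neuron scores of their groups, 0.43 and 0.23 in log2 units. The library labelled Mef2c shRNA 5 had the highest interneuron score (0.42). The cortical markers did not move together. Rorb, Cux2, Tbr1, Lamp5 and Rasgrf2 were highest of their groups in both libraries. Fezf2, Etv1 and Crym were lowest of the scramble group in scramble library 4. Bcl11b was lowest of all libraries in the library labelled Mef2c shRNA 5. With the cortical score as a covariate the Mef2c log2 fold change was -0.08 (edgeR adjusted p = 0.739). By edgeR 0 of the 10 cortical markers were called, and of the interneuron markers, whose summed level was 568 to 743 CPM in the Mef2c shRNA libraries and 639 to 706 CPM in the scramble libraries, 1 (Gad2) was called lower.

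Taken as a pool, the summed MEF2 transcripts were lower in the Mef2c shRNA libraries, at 335 ± 16.7 TPM, against 405 ± 39.0 TPM in the scramble libraries (SD, n = 5 each). The sums spanned 308 to 348 TPM in the Mef2c shRNA libraries and 368 to 469 TPM in the scramble libraries and did not overlap, but with the median instead of the longest transcript length they did (403 to 523 against 479 to 654 TPM). These sums carry no length and GC correction, and TPM and CPM need not differ alike between the groups. Hdac5 averaged 216 CPM in the Mef2c shRNA libraries and 210 CPM in the scramble libraries, but 122 and 126 TPM. Mef2c made up 16.4, 20.5, 17.0, 24.3 and 38.0% of the MEF2 sum in the libraries labelled Mef2c shRNA 1 to 5, against 22.5, 25.4, 24.6, 34.8 and 22.7% in scramble libraries 1 to 5. Its mean share was 23.2 ± 8.83% in the Mef2c shRNA libraries and 26.0 ± 5.08% in the scramble libraries (SD, n = 5 each), a difference within the spread. With the longest transcript length Mef2d was the largest part of the sum in both groups, 44.6 ± 7.54% in the Mef2c shRNA libraries and 43.5 ± 3.17% in the scramble libraries. With the median length the Mef2d share was 42.3% in the Mef2c shRNA libraries and 39.9% in the scramble libraries. The Mef2c share was then 37.2% and 41.1%, so by the mean Mef2c was the largest part in the scramble libraries. By library, Mef2c was the larger in scramble libraries 2 and 4, and Mef2d in scramble libraries 1, 3 and 5. The mean includes scramble library 4, where the Mef2c share was 51.5%. In the library labelled Mef2c shRNA 5, where the Mef2c share was highest, the Mef2d share was the lowest of all 10 (32.5%).

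Mef2d (chromosome 3, 88142372 to 88172086), a MEF2 factor abundant in brain, stood at 304, 246, 301, 256 and 211 CPM in the libraries labelled Mef2c shRNA 1 to 5, against 288, 271, 287, 305 and 301 CPM in scramble libraries 1 to 5. Libraries 2, 4 and 5 of the Mef2c shRNA group lay below every scramble library and libraries 1 and 3 lay within their range. The log2 fold change of -0.14 (SE 0.09) did not pass (edgeR adjusted p = 0.313), and it was -0.08 after the length and GC correction. With the cortical layer neuron score as a covariate it was -0.25 and passed (edgeR adjusted p = 0.0274); with the microglia score it was -0.26 and did not (edgeR adjusted p = 0.222). Mef2a (chromosome 7, 67231163 to 67372858), whose product pairs with the other MEF2 factors, ranged from 184 to 212 CPM in the Mef2c shRNA libraries and from 180 to 230 CPM in the scramble libraries. Its log2 fold change, -0.10 (SE 0.07, edgeR adjusted p = 0.374), turned to 0.07 after the length and GC correction, so that no direction can be given.

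**Figure D2:**
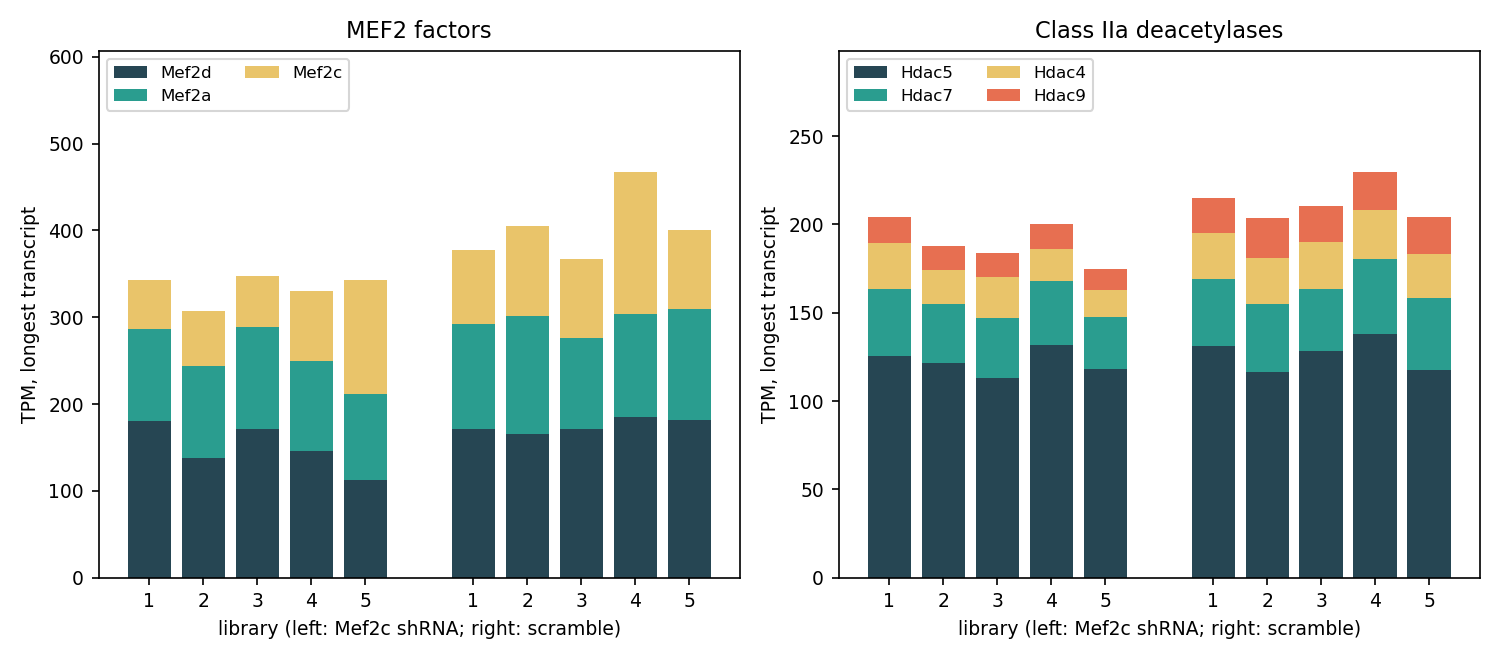
Stacked TPM (y axis, longest annotated transcript) of Mef2a, Mef2c and Mef2d (left panel) and of the 4 class IIa deacetylases (right panel) in each library, the 5 Mef2c shRNA libraries to the left of the 5 scramble libraries. Mef2b, under 1% of the MEF2 sum, is left out. With Mef2b included, the MEF2 sums of the Mef2c shRNA libraries reach at most 348 TPM and those of the scramble libraries at least 368 TPM. With the median transcript length the sums of the groups overlap, and no length and GC correction is applied.

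Hdac9 was the gene of the 7 that changed: it fell in the Mef2c shRNA libraries. Hdac9 (ENSMUSG00000004698, chromosome 12, 34047580 to 34917095, minus strand) encodes the class IIa deacetylase known for its short form that represses MEF2 without a catalytic domain. It stood at 37.6, 35.4, 35.8, 36.1 and 31.7 CPM in the libraries labelled Mef2c shRNA 1 to 5, against 47.7, 54.6, 50.5, 51.5 and 50.7 CPM in scramble libraries 1 to 5. Every Mef2c shRNA library was below every scramble library, the library labelled Mef2c shRNA 5 lowest of all. The difference was already present in the raw counts, which lay between 525 and 637 in the deeper Mef2c shRNA libraries and between 709 and 854 in the scramble libraries. The mean was 35.3 ± 2.19 CPM in the Mef2c shRNA libraries and 50.99 ± 2.48 CPM in the scramble libraries (SD, n = 5 each), a log2 fold change of -0.53 (SE 0.066, edgeR adjusted p = 0.000664). By p-value Hdac9 ranked 27 among the 14393 genes.

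The Hdac9 call held in all 10 fits that left out 1 library each, with log2 fold changes between -0.56 and -0.49. With the longest transcript of Hdac9 at 7.940 kb, the length and GC correction brought the value to -0.24 (SE 0.051, edgeR adjusted p = 0.0352), and after it Hdac9 no longer passed with a replicate block added (adjusted p = 0.0731) or without the library labelled Mef2c shRNA 5 and scramble library 4 (adjusted p = 0.0601). Without Mef2c shRNA libraries 2, 3 and 4 the value was -0.56 with an adjusted p of 0.0677. The microglia score was 0.33, 0.57 and 0.40 in those 3 libraries and -0.25 in the library labelled Mef2c shRNA 5, within the range of the scramble libraries (-0.30 to 0.04), and with that score as a covariate the Hdac9 log2 fold change was -0.58 (edgeR adjusted p = 0.0275). Of the 8 microglia markers 3 rose and 0 fell, and their summed level was 289 to 508 CPM in the Mef2c shRNA libraries and 271 to 353 CPM in the scramble libraries.

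Hdac4 (chromosome 1, 91928779 to 92195699, minus strand), a class IIa deacetylase that shuttles between cytoplasm and nucleus in neurons, was spread widely in the Mef2c shRNA group. It stood at 65.3, 51.6, 61.4, 48.1 and 43.8 CPM in the libraries labelled Mef2c shRNA 1 to 5, against 66.8, 63.6, 66.5, 68.3 and 62.6 CPM in scramble libraries 1 to 5. Libraries 2 to 5 of the Mef2c shRNA group were below every scramble library and library 1 was among them; the SD was 9.03 CPM in the Mef2c shRNA libraries and 2.37 CPM in the scramble libraries. The log2 fold change of -0.28 (SE 0.097) missed the threshold (edgeR adjusted p = 0.0722). It passed in DESeq2 (adjusted p = 0.0496), in limma-voom (adjusted p = 0.014) without Mef2c shRNA library 1 (edgeR adjusted p = 0.0114) and, at -0.40, with the cortical layer neuron score as a covariate (edgeR adjusted p = 0.00296), and after the length and GC correction it was -0.06 (SE 0.068). Exons of Hdac4 overlap those of Gm26720, a non-coding gene on the opposite strand, over 3536 bp, and without a stated strand setting their reads cannot be told apart.

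Hdac5 and Hdac7 did not pass the test. Hdac5 (chromosome 11, 102194432 to 102230166), the most abundant class IIa deacetylase in these libraries, ranged from 199 to 231 CPM in the Mef2c shRNA libraries and from 192 to 227 CPM in the scramble libraries. It differed by 0.04 on the log2 scale (SE 0.065, edgeR adjusted p = 0.69), and by 0.09 after the length and GC correction. Hdac7 (chromosome 15, 97792664 to 97844502), best known from endothelial cells and thymocytes, ranged from 52.8 to 61.1 CPM in the Mef2c shRNA libraries and from 56.7 to 67.1 CPM in the scramble libraries. It differed by -0.10 on the log2 scale (SE 0.065, edgeR adjusted p = 0.314), and by -0.08 after the correction. Of 8 endothelial markers 2 were called higher, and their summed level was 246 to 295 CPM in the Mef2c shRNA libraries and 229 to 256 CPM in the scramble libraries.

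Within the class IIa sum, Hdac9 made up 7.14 ± 0.373% in the Mef2c shRNA libraries and 9.87 ± 0.836% in the scramble libraries, without overlap (6.58 to 7.52 against 9.01 to 11.1%). Hdac5 made up 64.3 ± 2.76% in the Mef2c shRNA libraries and 59.4 ± 1.82% in the scramble libraries (SD, n = 5 each), also without overlap, though the nearest libraries were 61.5% and 61.1%. Both shares were also apart with the median transcript length. That length is the same for a gene in every library, so it cannot address the per-library trend with length. The shares carry no length and GC correction. The class IIa sum itself was 190 ± 12.2 TPM in the Mef2c shRNA libraries and 213 ± 10.6 TPM in the scramble libraries and its groups overlapped. The class IIa sum divided by the MEF2 sum was 0.569 ± 0.0482 in the Mef2c shRNA libraries and 0.528 ± 0.0390 in the scramble libraries, a difference within the spread. The size of this ratio depends on the length used. With the median transcript length it was 1.07 ± 0.128 in the Mef2c shRNA libraries and 0.948 ± 0.104 in the scramble libraries, and the groups overlapped.

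**Figure D3:**
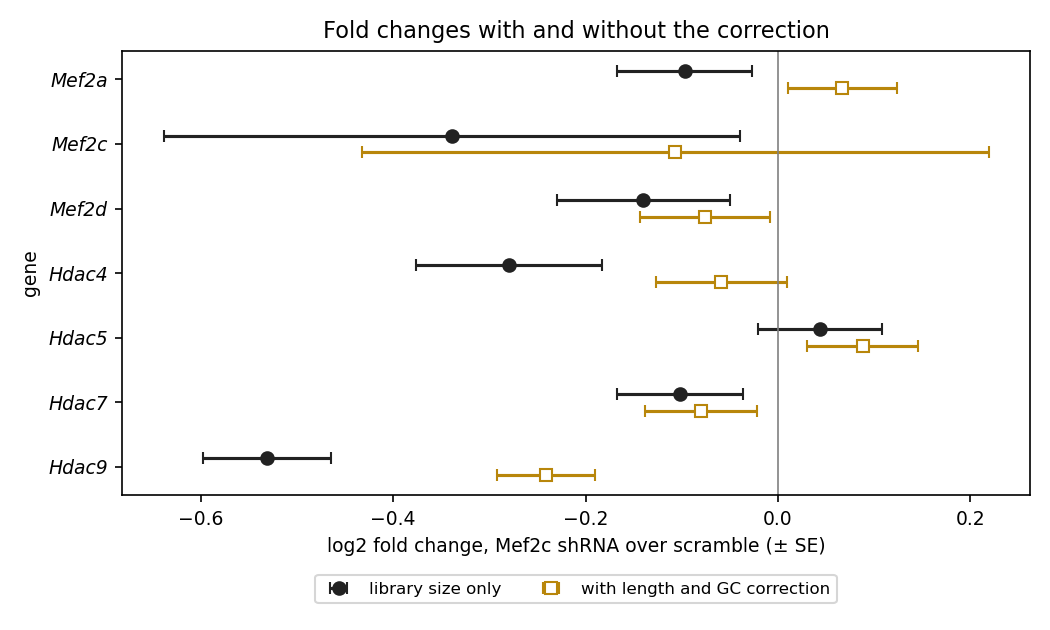
Log2 fold change of each gene, Mef2c shRNA over scramble (x axis, ± SE), with library size as the only scaling (filled circles) and with the per-library length and GC correction (open squares). Hdac9 stays below 0 in both (-0.53 and -0.24), while Hdac4 moves to -0.06 and Mef2a changes sign.

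In all, 0 of the 7 genes were called higher and 1 lower by edgeR, beside 4.66% and 7.61% of all genes tested, and after the correction 0 and 1, beside 0.702% and 0.946%; 2 of the 7, Hdac9 and Hdac4, had an unadjusted p under 0.05. DESeq2 and limma-voom each called 2, Hdac9 and Hdac4. The groups did not overlap in 1 of the 7 genes, against 9.34% of all genes. The median log2 fold change of the 7 was -0.14, where that of all genes was 0.02 and that of genes in the same length range was -0.16. After the correction it was -0.08, where that of all genes was 0.01.

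The genes whose log2 CPM followed each of the 7 most closely were ranked by Pearson r over the 10 libraries among 12753 named genes that averaged 2 CPM or more, predicted genes left out. This is a description of these libraries, picked as the highest of many values, and carries no p. Mef2c was matched best by Gucy1a1 (r = 0.975), Vill (0.956), Dpp10 (0.955), Bmp3 (0.955) and Rims3 (0.947), and with the group means taken out their r was between 0.935 and 0.978. Hdac9 was matched best by Wnk3 (0.988), Mdm4 (0.986) and Ino80d (0.985), which were themselves called lower, with log2 fold changes of -0.62, -0.52 and -0.52; with the group means taken out their r was 0.865, 0.894 and 0.935. Hdac4 was nearest to Rnf214 (0.979), Ankrd52 (0.976) and Irs1 (0.975), and Mef2d to Ncoa3 (0.980), Zfp251 (0.963) and Notch1 (0.962). Hdac7 was nearest to Setdb1 (0.959), Zdhhc3 (0.935) and Arid2 (0.933), Mef2a to Tmem30a (0.930), Mtpn (0.915) and Polr3k (0.904), and Hdac5 to Baiap2l2 (0.912), Slc39a13 (0.907) and Slc25a47 (0.888).

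Around these 7 genes, 70 genes of the pathway in 8 lists were counted in the same fit, and all 70 were tested. Of them 2 were called higher and 9 lower by edgeR, beside 4.66% and 7.61% of all genes tested, and the median log2 fold change was -0.01, where that of all genes was 0.02. After the length and GC correction 1 was higher and 2 were lower, beside 0.702% and 0.946% of all genes, and with the microglia score as a covariate 0 were called in either direction. Lists by role follow, from the corepressors to the targets.

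Among the 7 corepressor partners, 0 rose and 1 fell. Ncor1, the nuclear receptor corepressor that links class IIa deacetylases to HDAC3, stood at 282, 245, 251, 252 and 236 CPM in the libraries labelled Mef2c shRNA 1 to 5, against 308, 341, 303, 330 and 333 CPM in scramble libraries 1 to 5. The groups did not overlap, and a log2 fold change of -0.35 (SE 0.063) gave an edgeR adjusted p of 0.00443. The longest transcript of Ncor1 is 9.037 kb, and after the length and GC correction the value was -0.03 (adjusted p = 0.797). Hdac3 itself did not pass in edgeR (0.12, SE 0.065, adjusted p = 0.232). Gps2, a subunit of the same complex, missed the threshold in edgeR (0.36, SE 0.11, adjusted p = 0.0514) and passed in DESeq2 (adjusted p = 0.0269), in limma-voom (adjusted p = 0.0197) and in edgeR with upper quartile scaling (adjusted p = 0.0456); after the length and GC correction it was 0.14 (edgeR adjusted p = 0.402). Tbl1xr1, another subunit, was called higher only after the correction (0.28, adjusted p = 0.0499, against -0.02 without it). Of the 6 deacetylases outside class IIa, 0 were called in either direction by edgeR, DESeq2 or limma-voom and 0 had an unadjusted p under 0.05, with a list median of 0.08; the smallest p belonged to Hdac10 (0.22, unadjusted p = 0.058) and Hdac1 (0.13, unadjusted p = 0.0992).

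Of 16 kinases that can phosphorylate class IIa deacetylases, 0 rose and 2 fell. Sik2, a salt-inducible kinase, stood at 20.2, 11.7, 12.6, 11.9 and 8.88 CPM in the libraries labelled Mef2c shRNA 1 to 5, against 20.8, 21.9, 20.6, 22.9 and 24.5 CPM in scramble libraries 1 to 5. Library 1 of the Mef2c shRNA group lay just below the lowest scramble library and the other 4 lay far below it. It fell by 0.76 on the log2 scale (SE 0.17, edgeR adjusted p = 0.0163), and was -0.65 after the correction (adjusted p = 0.0388). It no longer passed without scramble library 5 or without Mef2c shRNA library 2. Camk4, a calcium-dependent kinase of neuronal nuclei, averaged 119 ± 18.1 CPM in the Mef2c shRNA libraries and 153 ± 17.2 CPM in the scramble libraries (log2 fold change -0.36, SE 0.10, edgeR adjusted p = 0.0373); after the correction it was -0.40 (adjusted p = 0.0868), and it passed in 3 of the 10 fits that left out 1 library. The abundant Camk2a, the main CaMKII subunit of forebrain neurons, had a log2 fold change of -0.01 (SE 0.077).

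Among 7 14-3-3 genes, 1 rose: Sfn, the sigma form, at 2.77 ± 0.544 CPM in the Mef2c shRNA libraries and 1.69 ± 0.309 CPM in the scramble libraries (log2 fold change 0.71, SE 0.22, edgeR adjusted p = 0.0468). It passed in 2 of the 10 fits that left out 1 library, and not after the correction (0.49, adjusted p = 0.259). The other 6, all abundant, had log2 fold changes between -0.04 and 0.10, the highest that of Ywhae, the epsilon form (SE 0.055, edgeR adjusted p = 0.223). Of 7 genes of calcineurin, the calcium-dependent phosphatase that acts on MEF2, and its regulators, 0 were called by edgeR, DESeq2 or limma-voom in either direction; 1, Rcan3, had an unadjusted p under 0.05 (0.0362) and a log2 fold change of -0.17, and Ppp3r1, the regulatory subunit, had one of 0.16 (SE 0.086, edgeR adjusted p = 0.221).

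Among 10 kinases and coactivators of MEF2, 1 rose and 3 fell, beside 4.66% and 7.61% of all genes tested. Cdk5, a neuronal kinase that phosphorylates MEF2 factors, averaged 94.4 ± 15.9 CPM in the Mef2c shRNA libraries and 75.7 ± 4.62 CPM in the scramble libraries (0.32, SE 0.096, edgeR adjusted p = 0.0454), and passed in 4 of the 10 fits that left out 1 library. The kinase Gsk3b (-0.34, SE 0.073), the acetyltransferase Ep300 (-0.36, SE 0.080) and the coactivator Ppargc1a (-0.40, SE 0.10) fell, with edgeR adjusted p of 0.0117, 0.0147 and 0.0242. Gsk3b and Ep300 passed in all 10 fits that left out 1 library, Ppargc1a in 7. After the length and GC correction none of these 4 genes passed: the values were 0.17 for Cdk5, -0.03 for Gsk3b, -0.06 for Ep300 and -0.17 for Ppargc1a.

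Of 11 genes reported as MEF2 targets in neurons, 0 rose and 3 fell, beside 4.66% and 7.61% of all genes tested. The list median was -0.23, where that of all genes was 0.02. Kcna1, which encodes the potassium channel Kv1.1, stood at 89.3, 53.8, 72.0, 55.6 and 41.4 CPM in the libraries labelled Mef2c shRNA 1 to 5, against 103, 109, 106, 101 and 108 CPM in scramble libraries 1 to 5. The groups did not overlap, and the scramble libraries lay close together. It fell by 0.75 on the log2 scale (SE 0.17, edgeR adjusted p = 0.0201) and was as low after the correction (-0.75, adjusted p = 0.0409); it no longer passed without scramble library 2, scramble library 5 or Mef2c shRNA library 2. Homer1, a scaffold of the postsynaptic density, had a log2 fold change of -0.31 (SE 0.085, edgeR adjusted p = 0.0325) and -0.10 after the correction. Pcdh17, a protocadherin, had one of -0.31 (SE 0.086, edgeR adjusted p = 0.0361) and 0.09 after the correction, so that its direction depends on it. Homer1 passed in 4 and Pcdh17 in 3 of the 10 fits that left out 1 library, and without scramble library 2, scramble library 5 or Mef2c shRNA library 2 the list had 0 called genes. The activity-regulated genes Arc, Nr4a1 and Bdnf did not pass, with log2 fold changes of -0.34 (SE 0.21), -0.23 (SE 0.19) and -0.08 (SE 0.099), nor did Jun (0.05, SE 0.093), for which a match is printed above. After the correction the values were -0.46 for Arc, -0.37 for Nr4a1, -0.02 for Bdnf and -0.05 for Jun, again without a call. With the correction 0 genes of the list were called higher and 1 lower, beside 0.702% and 0.946% of all genes. The list median after the correction was -0.05.

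Serum response factor, the other MADS-box factor of neurons, and its cofactors make up the last list. Of these 6 genes 0 were called by edgeR or DESeq2 and 1 by limma-voom. In edgeR 3 had an unadjusted p under 0.05, where with DESeq2 size factors 4343 of all 14393 genes did. The median log2 fold change of the list was -0.04. Elk4 had the smallest p: it averaged 34.9 ± 2.31 CPM in the Mef2c shRNA libraries and 39.7 ± 2.22 CPM in the scramble libraries, without overlap, for a log2 fold change of -0.19 (SE 0.070, adjusted p = 0.0931). Mrtfb, a cofactor of serum response factor, was at -0.20 (unadjusted p = 0.0215) and, after the correction, at 0.08.

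**Figure D4:**
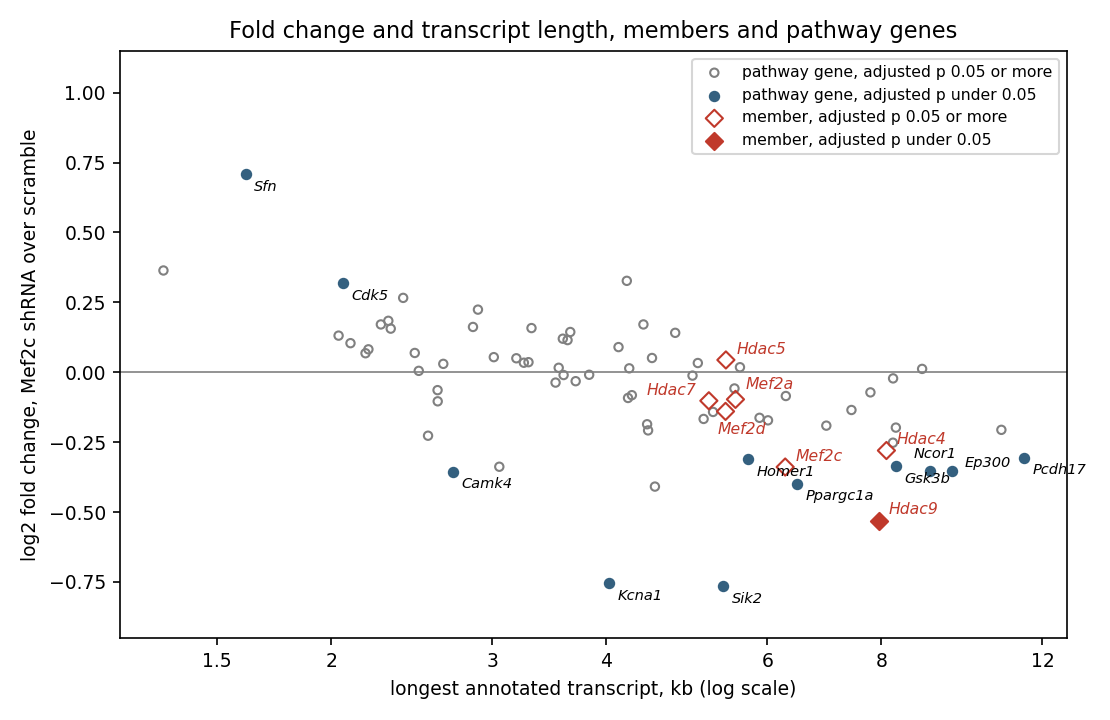
Log2 fold change, Mef2c shRNA over scramble (y axis), against the longest annotated transcript in kb (x axis, log scale) for the 7 genes (diamonds) and the 70 pathway genes (circles), filled where the adjusted p was under 0.05. The called genes over 8 kb lie between -0.36 and -0.31, while Kcna1 and Sik2, with transcripts of 4.031 and 5.369 kb, lie near -0.75.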

How the data were processed

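Per the labels' protocols, polyA-selected RNA of CA3 tissue was sequenced with an Illumina HiSeq. HISAT2, featureCounts and mm10 are named in the submitters' processing notes; no version, strand setting or annotation was given there. The deposited values are raw counts for each gene identifier, of which 18421 matched GENCODE M21 (GRCm38) and 32 did not.

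Sample titles gave the groups. Counts were filtered (filterByExpr), scaled (TMM) and tested with edgeR 4.0.16 (robust quasi-likelihood fit, R 4.3.3), with Benjamini-Hochberg adjustment over 14393 genes. SE is the absolute log2 fold change over the square root of F. CPM used TMM-scaled totals, but plain totals for summed markers and Mef2b. Marker scores are means of gene-centred log2 CPM (prior count 2). For the correction, splines of log2 transcript length and of GC content, with 5 degrees of freedom each, were fitted in every library and entered as offsets. Alternatives used DESeq2 1.42.0, limma 3.58.1 and sva 3.50.0. On counts simulated for the Mef2c shRNA against scramble comparison (14304 genes), 58% of 1.5-fold and 82% of 2-fold changes were recovered, with 4 false calls. Each gene was drawn independently, without a per-library trend with length or GC content or a shift in cell mix. The simulation therefore cannot tell how many calls in the real libraries go with these. No 2 libraries of a group agreed within sampling noise.

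The genes, the lists, the alternatives and the naming rule (the 7 genes; in each list up to 5 called genes, or the 2 with the smallest p if fewer than 2 were called; the genes closest by Pearson r) were chosen with earlier results of these data known. Hdac3, Tbl1xr1, Camk2a, Arc, Nr4a1, Bdnf and Jun were named besides, after their values were seen.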

Additional observations from a re-analysis of the deposited data

Results flagged for a closer look

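Mef2c in scramble library 4, at 312 CPM, stood far from the other 4 scramble libraries (166 to 198 CPM). Its gap to the next library was 0.784 of the range of the group, above Dixon's 95% critical value of 0.71 for 5 samples. Of 14 groups examined, each gene in each group, this was the only 1 so marked, and chance marks about 1 group in 20. Hdac9, Hdac4, Mef2a and Mef2d of that library, at 51.5, 68.3, 199.6 and 305 CPM, were not marked. Mef2c in the library labelled Mef2c shRNA 5 was not marked either, although it stood at 286 CPM against 111 to 163 CPM in the rest of its group.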

How the results depend on the processing

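Over all genes 671 were called higher and 1095 lower. The counts were 1571 and 1822 with limma-voom, 1355 and 1721 with the cortical score as a covariate, 185 and 525 with 1 surrogate variable, 12 and 96 with the microglia score, 101 and 136 after the length and GC correction, 109 and 95 when that went with the replicate block, 313 and 716 without the library labelled Mef2c shRNA 5 and scramble library 4, 106 and 148 when that went with the correction (an alternative chosen after seeing the data), 43 and 336 at an adjusted p of 0.01, and 1457 and 1649 at 0.1; DESeq2 called 1167 higher. Without Mef2c shRNA libraries 2, 3 and 4 edgeR called 0 and 0, with 2590 genes at an unadjusted p under 0.05, and fewer samples were fitted. Leaving out 1 library gave 130 to 1529 higher and 501 to 1776 lower, most without Mef2c shRNA library 1 and fewest without scramble library 2. The causes were not tested.

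Of the 7 genes, 1 was called lower, and 2 were with DESeq2, with limma-voom, without the library labelled Mef2c shRNA 5 and scramble library 4, and at an adjusted p of 0.1; 3 were with the cortical score; 0 were without Mef2c shRNA libraries 2, 3 and 4, with the replicate block and correction, and with the correction without the library labelled Mef2c shRNA 5 and scramble library 4. Leaving out 1 library gave 1 to 2, and 0 were called higher throughout. Of the 70 pathway genes, 2 were higher and 9 lower. The higher count was 5 with the cortical score, 1 without a filter and after the correction, and 0 with the replicate block (with or without the correction), 1 surrogate variable, the microglia score, either set of libraries left out, and an adjusted p of 0.01. The lower count was 16 with limma-voom, 2 after the correction, with its block, with its left-out libraries and with 1 surrogate variable, 1 at 0.01, and 0 with the microglia score and without Mef2c shRNA libraries 2, 3 and 4. Leaving out 1 library gave 0 to 3 higher and 3 to 13 lower.

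Mef2c had a log2 fold change of 0.091 with the microglia score (adjusted p = 0.9) and -0.446 without the library labelled Mef2c shRNA 5 and scramble library 4 (edgeR adjusted p = 0.0274), and -0.642 to -0.139 when 1 library was left out. Signs turned under the correction, the correction with the replicate block, and the correction without those 2 libraries for Mef2a (0.067, 0.065 and 0.027), Mrtfb (0.080, 0.078 and 0.094) and Pcdh17 (0.092, 0.094 and 0.081), and under the last for Hdac1 (-0.002). With the median transcript length, Mef2c made up 37.2% of the MEF2 sum in the Mef2c shRNA libraries and 41.1% in the scramble libraries, Hdac5 77.2% and 72.9% of the class IIa sum, and Hdac9 2.96% and 4.18%. Replicate numbers did not pair the libraries: same-numbered libraries deviated together with r between -0.114 and 0.403, and 1 of the 5 Mef2c shRNA libraries matched its own number best. With the replicate block alone Hdac9 was at -0.531 (adjusted p = 0.00491), Hdac4 at -0.293 (adjusted p = 0.0604) and Mef2c at -0.397 (adjusted p = 0.331). Of the other single-gene values under all alternatives, 493 kept direction and call, 108 lost a call, 14 gained one and 10 turned sign.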

Other observations

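Mef2d and Hdac4 shared their highest and lowest Mef2c shRNA libraries. In both, library 1 was highest, followed by library 3, and the library labelled Mef2c shRNA 5 was lowest (211 CPM for Mef2d, 43.8 CPM for Hdac4). Hdac5 did not share this order: it stood at 222 CPM in the library labelled Mef2c shRNA 5 and 212 CPM in Mef2c shRNA library 1. The ratio of Hdac5 to Hdac4 in TPM was 4.87, 6.31, 4.86, 7.20 and 7.60 in the libraries labelled Mef2c shRNA 1 to 5, against 4.94, 4.52, 4.85, 4.99 and 4.67 in scramble libraries 1 to 5. Sik2 and Kcna1, too, were highest in library 1 and lowest in the library labelled Mef2c shRNA 5 within the Mef2c shRNA group.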
